A study of Mus musculus with 8 samples.

Results

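Base excision repair removes single damaged or modified bases from DNA and rebuilds the gap, and 10 of its genes are described here in male germ cells of the fetal mouse. They are the DNA glycosylase genes Tdg, Smug1, Ung, Neil1 and Ogg1 and the downstream repair genes Apex1, Xrcc1, Parp1, Lig3 and Polb. They were chosen by name, as glycosylases and downstream steps used in active DNA demethylation, and all 10 were found among the 55401 genes of the count table and were tested. RNA was sequenced from prospermatogonia (male germ cells before birth) at embryonic stage E17.5. There were 4 libraries labelled WT, with the genotype Tet1+/+, and 4 labelled KO, with the genotype Tet1-/-, all given as 1 batch. The labels state no treatment and do not say what the Tet1 allele removes, how the cells were isolated, or whether each library came from its own animal, so p-values measure the spread between these libraries only.

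In active demethylation a TET enzyme oxidises the methyl group on cytosine in steps, and a glycosylase then cuts the oxidised base out. TDG does this for formylcytosine and carboxylcytosine, and it also acts on thymine or uracil mispaired with guanine. The resulting abasic site is opened by an endonuclease, sensed by poly(ADP-ribose) polymerase, filled by a DNA polymerase and sealed by a ligase. In germ cells of the fetal testis, methylation is erased early and laid down again around the stage sampled here.

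Total counts ran from 13820764 to 20115250 per library, and levels are given as CPM, the count relative to a library size adjusted by TMM (edgeR's trimmed-mean scaling). Tet1 itself went against the labels: it was between 30.2 and 34.2 CPM in the 4 libraries labelled WT and between 75.8 and 147 CPM in those labelled KO. A count per gene cannot show whether a deleted exon was read, so every direction below refers to the labels as deposited. Of 9 germ cell markers none was at 0, and their summed level was 2383 to 2749 CPM (WT) and 2031 to 2468 CPM (KO), with Piwil2, a piRNA pathway gene, the most abundant. Within that sum, with edgeR and TMM, Dazl (0.71), Nanos2 (1.66) and Nanos3 (2.10) were higher on the log2 scale, Mael (-1.13), Piwil4 (-0.89) and Piwil2 (-0.50) were lower and 3 did not pass. Sums over markers of other testis cells were below the germ cell sum in both groups. They were at most 43.8 CPM for 8 Sertoli markers, 157 CPM for 7 stromal, 69.8 CPM for 5 endothelial and 14.1 CPM for 7 macrophage and blood markers. Within these sums, with edgeR and TMM, 1 endothelial marker rose and 3 fell. Of the stromal markers 1 rose and 1 fell, and of the macrophage and blood markers 1 rose and 2 fell. Of the Sertoli markers, Amh (1.20) and Wt1 (1.13) were higher and Dhh (-0.83) lower, with means of 6.07 CPM or less in both groups, 4 did not pass and 1 was too low to be tested, and the part of these cells in the results was not tested. KO 4 stood apart with 1803 CPM over 6 Leydig cell markers, against 14.9 to 32.5 CPM in the other 7 libraries, and values without it are given below. Markers of cycling cells moved with the groups. The sum of 8 of them (Top2a, Mki67 and others) was 425 to 583 CPM (WT) and 1878 to 2038 CPM (KO), and that of 10 replication genes (Mcm3, Mcm2 and others) was 681 to 828 CPM and 1565 to 1783 CPM. The part of cycling in the differences below was not tested.

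The region just upstream of the start of a gene carries its core promoter. The stretches below are shown because Tdg, Smug1, Ung and Lig3 were the 4 genes of the 10 that rose, and Parp1 is set beside them as the most abundant gene, which did not pass. They are the sequences that RefSeq gives (GRCm38.p6), 5′ to 3′ on the strand of the gene, restricted to the longest run within 250 bases before the start that lies outside every annotated exon. Capitals mark matches, on either strand, to the CCAAT box (CCAAT), the GC box (GGGCGG) and the E-box (CACGTG).
Tdg: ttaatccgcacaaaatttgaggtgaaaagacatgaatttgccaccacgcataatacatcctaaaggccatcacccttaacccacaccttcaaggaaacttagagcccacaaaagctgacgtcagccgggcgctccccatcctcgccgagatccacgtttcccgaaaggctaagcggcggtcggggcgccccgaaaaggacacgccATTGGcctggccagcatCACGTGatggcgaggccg
Smug1: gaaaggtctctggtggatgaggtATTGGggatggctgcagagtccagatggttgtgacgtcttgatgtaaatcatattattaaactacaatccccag
Ung: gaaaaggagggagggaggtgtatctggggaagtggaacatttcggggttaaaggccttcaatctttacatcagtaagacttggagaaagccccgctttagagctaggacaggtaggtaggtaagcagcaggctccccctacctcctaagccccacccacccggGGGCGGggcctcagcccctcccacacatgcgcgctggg
Lig3: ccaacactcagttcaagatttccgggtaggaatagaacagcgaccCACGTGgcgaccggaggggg
Parp1: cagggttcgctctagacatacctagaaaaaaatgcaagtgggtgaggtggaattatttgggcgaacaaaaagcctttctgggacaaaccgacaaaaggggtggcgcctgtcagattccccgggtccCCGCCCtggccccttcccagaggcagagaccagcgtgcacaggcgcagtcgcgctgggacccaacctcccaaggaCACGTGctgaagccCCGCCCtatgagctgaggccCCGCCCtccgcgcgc
They lie at chr10:82629588-82629827 (plus strand) for Tdg, chr15:103163438-103163534 (minus) for Smug1, chr5:114130185-114130385 (plus) for Ung, chr11:82781043-82781107 (plus) for Lig3 and chr1:180568641-180568890 (plus) for Parp1. The Smug1 stretch lies inside the GENCODE gene, between exons, because the RefSeq start differs from the outermost GENCODE start, and the other stretches end before or at the first GENCODE exon.

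A 250-base window was found for 9 of the 10 genes, all but Polb. An E-box was in the windows of Tdg, Apex1, Parp1 and Lig3, and in 6.0% of all 32851 windows. A CCAAT box was in those of Tdg, Smug1, Ogg1, Apex1 and Xrcc1, against 33.8% of all windows, and a GC box in those of Ung, Ogg1, Apex1 and Parp1, against 32.7%. The sequence TTTNNCGC, the core of E2F-type sites, was in none of the 9 and in 4.3% of all windows. Each of the 3 matched motifs was thus present both in genes that rose and in genes that did not pass. CpG dinucleotides, the target of DNA methylation, numbered 28 in the window of Apex1, 20 in Ogg1, 19 in Tdg, 16 in Parp1, 14 in Smug1, 12 in Neil1 and in Lig3, 10 in Ung and 5 in Xrcc1, where the median of all windows was 6. All but Xrcc1 were thus above that median. The motif shares over all windows were not matched for CpG content, so they are no like-for-like background, also for the E-box, which itself holds a CpG.

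The glycosylase genes Tdg, Ung and Smug1 were higher in the libraries labelled KO, and most downstream genes did not pass. Of the 10 genes, 4 rose, 0 fell and 6 did not pass edgeR's quasi-likelihood test at a Benjamini-Hochberg adjusted p under 0.05 over all 24005 genes tested. Those that rose were Tdg, Ung, Smug1 and Lig3, or 3 of 5 glycosylases and 1 of 5 downstream genes. The background was high: 53.5% of all tested genes passed, 25.3% with a higher and 28.2% with a lower level under the label KO. Protein-coding genes passed in 60.8% of cases, 31.0% upward and 29.8% downward. Of genes whose mean log2 CPM was at least 4, 63.7% passed, 46.0% upward and 17.7% downward, and 3 of the 7 repair genes at that level (42.9%) rose. Among those 7 genes the share that rose was therefore near that of genes of like abundance. The other 3, Smug1, Neil1 and Ogg1, lay below that level and were not set against genes of like abundance. The median log2 difference was 0.33 over the 10 genes, 0.99 over the 5 glycosylases and 0.20 over the 5 downstream genes, against -0.05 over all tested genes and 0.26 over those of log2 CPM 4 and above. The last value does not match the abundance of Smug1, Neil1 and Ogg1. Without overlap between groups, 7 of the 10 genes were higher and 0 lower, against 23.2% and 25.1% of all tested genes. Of these 7, Neil1, Xrcc1 and Polb did not pass, and the signs of Xrcc1 and Polb depended on the scaling. The share without overlap among genes of like abundance was not computed. In bulk RNA, more cells that hold a transcript and more of it per cell cannot be told apart.

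**Figure D1:**
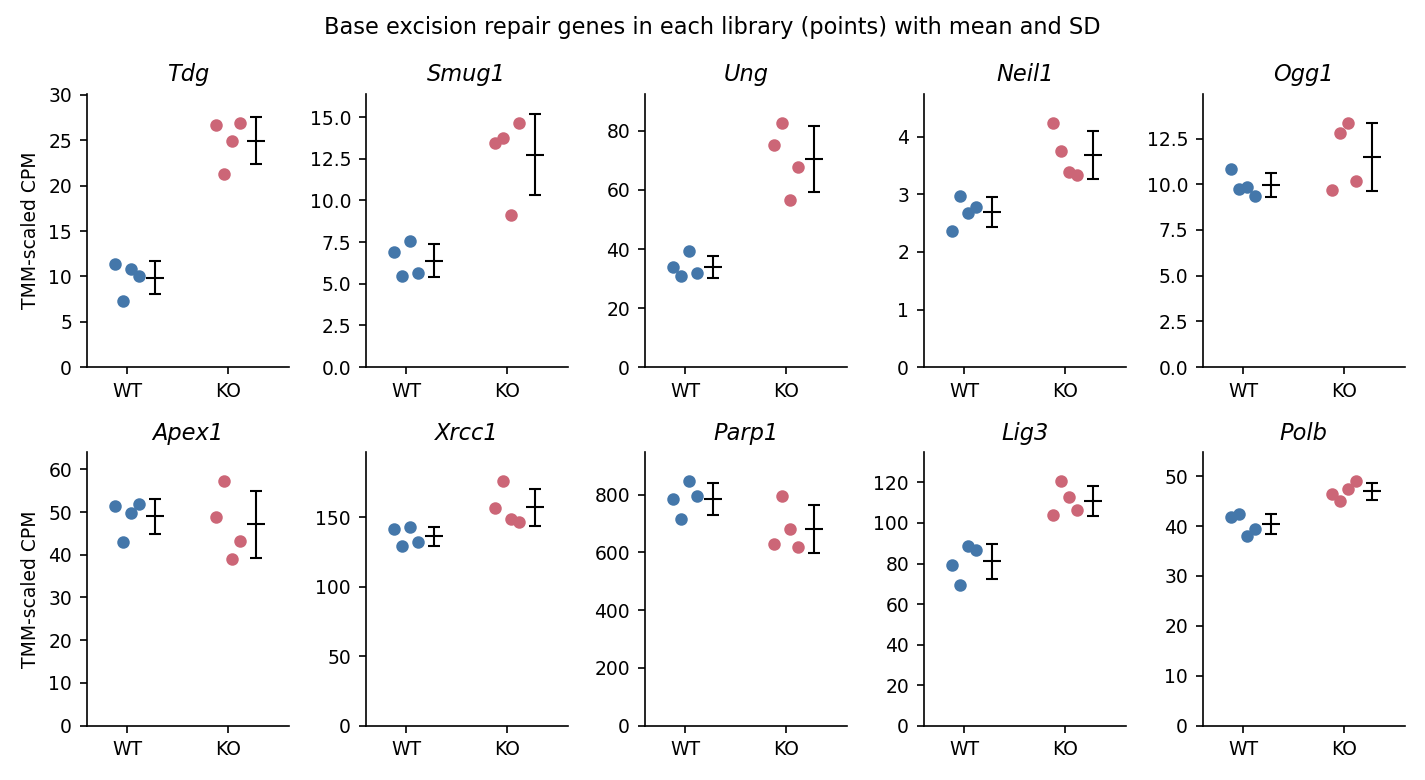
TMM-scaled CPM of each of the 10 genes (vertical axes from 0) in the 4 libraries labelled WT (blue) and the 4 labelled KO (red), with the mean and SD of each group in black. For Tdg the libraries labelled KO sit between 21.3 and 26.9 CPM, all above the highest library labelled WT at 11.4 CPM, while for Apex1, Ogg1 and Parp1 the groups overlap.

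Tdg (ENSMUSG00000034674.18, chromosome 10, 82629828 to 82650799, plus strand, GRCm38) encodes the glycosylase that completes TET-dependent demethylation. It had 11.4, 7.26, 10.8 and 10.03 CPM in WT 1 to WT 4 and 26.6, 21.3, 24.9 and 26.9 CPM in KO 1 to KO 4. The groups were far apart, with WT 2 lowest of all and the lowest library labelled KO still above every library labelled WT. The means were 9.87 ± 1.82 and 25.0 ± 2.57 CPM (SD, n = 4 each), a log2 difference of 1.34 (SE 0.161, 95% interval 0.99 to 1.68, edgeR adjusted p = 2.49e-05). This was the largest difference among the 10 genes, 2.53-fold, and it rested on 724 counts over WT 1 to WT 4 and 1535 over KO 1 to KO 4. A processed pseudogene copy, Tdg-ps, had 48 and 41 counts in all.

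Ung (ENSMUSG00000029591.14, chromosome 5, 114130386 to 114139323, plus strand) encodes the main uracil glycosylase of nuclear and mitochondrial DNA. Its level was 33.9, 30.8, 39.3 and 31.8 CPM in WT 1 to WT 4 and 75.3, 82.7, 56.5 and 67.9 CPM in KO 1 to KO 4. All 4 libraries labelled KO were above the others, with KO 3 the lowest of them. Ung rose from 34.0 ± 3.81 to 70.6 ± 11.2 CPM (SD, n = 4 each), a log2 difference of 1.06 (SE 0.133, interval 0.77 to 1.34, edgeR adjusted p = 3.36e-05). A count per gene does not separate its nuclear from its mitochondrial isoform.

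Smug1 (ENSMUSG00000036061.10, chromosome 15, 103153290 to 103167092, minus strand) encodes a glycosylase for uracil and for hydroxymethyluracil. It had 6.91, 5.46, 7.55 and 5.63 CPM in WT 1 to WT 4 and 13.5, 13.7, 9.15 and 14.7 CPM in KO 1 to KO 4. Again KO 3 was lowest of its group, and the groups did not overlap. The rise from 6.39 ± 1.01 to 12.7 ± 2.45 CPM (SD, n = 4 each) was a log2 difference of 0.99 (SE 0.192, interval 0.58 to 1.41, edgeR adjusted p = 0.000794).

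The other two glycosylases of the group, which act on oxidised bases, did not pass. Neil1 (ENSMUSG00000032298.13, chromosome 9, 57142800 to 57148305, minus strand), for oxidised pyrimidines, had 2.36, 2.96, 2.68 and 2.78 CPM in WT 1 to WT 4 and 4.24, 3.74, 3.40 and 3.34 CPM in KO 1 to KO 4. Its groups did not overlap, but the log2 difference of 0.45 had an interval of -0.02 to 0.92 (edgeR adjusted p = 0.0995) and rested on 195 and 228 counts in all. Ogg1 (ENSMUSG00000030271.14, chromosome 6, 113326972 to 113335068, plus strand), for oxidised guanine, had 10.9, 9.76, 9.83 and 9.38 CPM in WT 1 to WT 4 and 9.67, 12.8, 13.4 and 10.2 CPM in KO 1 to KO 4. Its groups overlapped, with a log2 difference of 0.21 (interval -0.14 to 0.55, edgeR adjusted p = 0.297). Of the exon bases of Ogg1, 10.6% are shared with Camk1 on the opposite strand, which had 9.23 ± 0.984 and 9.53 ± 1.02 CPM (SD, n = 4 each).

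The makeup of the glycosylase transcripts differed between the groups on a per-length scale (CPM divided by kilobases of merged exon). Tdg made up 9.71% to 13.5% of the summed level of the 5 glycosylases in the libraries labelled WT and 13.6% to 19.1% in those labelled KO. Ogg1 made up 27.5% to 32.1% and 16.0% to 25.1%, and Ung, the largest share in every library, 39.6% to 43.97% and 42.4% to 51.8%. The ranges did not overlap for Tdg, where they nearly met (13.5% and 13.6%), or for Ogg1, and overlapped for Ung. The shares add up to a whole, so they restate the differences above. A rise of the other genes lowers the share of Ogg1, whose own level was not lower (log2 difference 0.21, not passing). Shares with the length of the longest transcript were not computed. Neil1 had 8.04% to 11.4% and 6.81% to 8.21%, and Smug1 6.37% to 7.51% and 6.11% to 9.09%, so these overlapped as well.

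Among the downstream genes Lig3 alone passed. Lig3 (ENSMUSG00000020697.16, chromosome 11, 82781108 to 82804274, plus strand) encodes the ligase that seals the repaired strand with XRCC1 and also serves mitochondrial DNA. It had 79.5, 69.3, 88.6 and 86.8 CPM in WT 1 to WT 4 and 104, 121, 113 and 106 CPM in KO 1 to KO 4, so every library labelled KO was above every library labelled WT. The means were 81.1 ± 8.79 and 111 ± 7.46 CPM (SD, n = 4 each), a log2 difference of 0.45 (SE 0.106, interval 0.22 to 0.68, edgeR adjusted p = 0.00306). This call was lost with upper-quartile scaling (0.22, adjusted p = 0.0910), with scaling on ribosomal protein genes (0.27, adjusted p = 0.0809) and with cyclic loess (limma, 0.20, adjusted p = 0.0749). Lig3 shares 25.1% of its exon bases with Rffl on the opposite strand, which rose by 0.67 on the log2 scale (edgeR adjusted p = 0.00222). The strand setting of the counting is not given in the sources used here, so whether reads in the shared bases were told apart is not known.

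Xrcc1 and Polb, the scaffold and the gap-filling polymerase that work with LIG3, had small differences that did not pass. Xrcc1 (ENSMUSG00000051768.9, chromosome 7, 24546289 to 24573440, plus strand) had 142, 129, 143 and 132 CPM in WT 1 to WT 4 and 156, 176, 149 and 147 CPM in KO 1 to KO 4. Polb (ENSMUSG00000031536.6, chromosome 8, 22628126 to 22653435, minus strand) had 41.8, 42.3, 38.0 and 39.5 CPM in WT 1 to WT 4 and 46.5, 45.0, 47.5 and 49.0 CPM in KO 1 to KO 4. In neither gene did the groups overlap, which was so for 48.4% of all tested genes, and the spread within each group was narrow. The log2 difference was 0.20 for Xrcc1 (interval -0.004 to 0.41, edgeR adjusted p = 0.0901) and 0.22 for Polb (interval 0.01 to 0.43, adjusted p = 0.0773). DESeq2 called Polb (adjusted p = 0.0365). With upper-quartile scaling the differences were -0.04 for Xrcc1 and -0.02 for Polb, so their sign depended on the scaling.

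Apex1 and Parp1, the endonuclease and the strand-break sensor, did not pass, and their fitted differences were below 0. Apex1 (ENSMUSG00000035960.14, chromosome 14, 50924968 to 50927139, plus strand) encodes the main endonuclease at abasic sites, and had 51.5, 43.0, 49.7 and 51.8 CPM in WT 1 to WT 4 and 48.9, 57.2, 39.1 and 43.2 CPM in KO 1 to KO 4. The groups overlapped, with a log2 difference of -0.06 (interval -0.33 to 0.22, edgeR adjusted p = 0.730). Of its exon bases 61.7% are shared with Pip4p1 on the opposite strand, which rose by 0.46 on the log2 scale from 32.6 ± 1.74 to 44.9 ± 1.87 CPM (SD, n = 4 each; edgeR adjusted p = 0.00188). The Apex1 value is therefore uncertain in either direction.

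Parp1 (ENSMUSG00000026496.11, chromosome 1, 180568924 to 180601254, plus strand) encodes the polymerase that marks DNA strand breaks with poly(ADP-ribose). It had 784, 715, 846 and 794 CPM in WT 1 to WT 4 and 630, 797, 680 and 617 CPM in KO 1 to KO 4. KO 2 lay within the range of the libraries labelled WT and the other 3 lay below it. The log2 difference was -0.20 (SE 0.109, interval -0.44 to 0.03, edgeR adjusted p = 0.130). Parp1 passed as lower with upper-quartile scaling (-0.44, edgeR adjusted p = 0.00336), with scaling on ribosomal protein genes (-0.39, 0.00828) and with cyclic loess (-0.39, limma adjusted p = 0.000387), and Apex1 with the first (-0.30, 0.0469) and the last (-0.33, 0.0255). The median difference over all genes shifted by -0.24 and -0.18 under the first 2 of these, and by 0.12 under cyclic loess. They gave 31.2%, 34.5% and 50.9% of all calls as higher, against 47.3% with TMM. Tdg, Ung and Smug1 passed as higher under each of these 3.

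**Figure D2:**
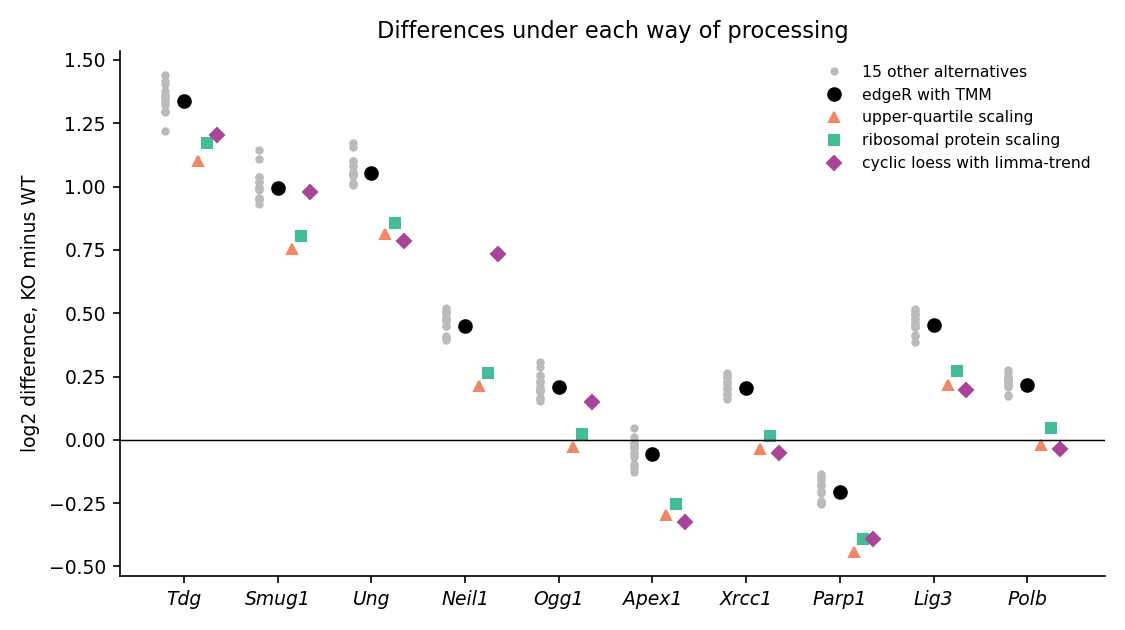
Log2 difference, KO minus WT, of each of the 10 genes with edgeR and TMM scaling (black), under upper-quartile, ribosomal protein and cyclic loess scaling (coloured) and with 15 other alternatives (grey). Tdg, Smug1 and Ung lie between 0.75 and 1.44 throughout, whereas Xrcc1, Polb and Ogg1 lie on either side of 0 depending on the scaling.

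Levels of the 10 genes differed widely when set per kilobase of exon. In the libraries labelled WT, Parp1 had 148 ± 10.2 CPM per kb (SD, n = 4), followed by Apex1 (34.5), Xrcc1 (23.4), Lig3 (11.1), Polb (10.3), Ung (6.21), Ogg1 (4.55), Tdg (1.84), Neil1 (1.44) and Smug1 (1.04). The highest level was 142 times the lowest. Library ranges of neighbours in this order overlapped for Lig3 and Polb and for Tdg and Neil1, and were apart for the others. In the libraries labelled KO the order of the means was Parp1 (129), Apex1 (33.1), Xrcc1 (26.9), Lig3 (15.2), Ung (12.9), Polb (11.9), Ogg1 (5.26), Tdg (4.64), Smug1 (2.08) and Neil1 (1.97). There the neighbours Apex1 and Xrcc1, Lig3 and Ung, Ung and Polb, Ogg1 and Tdg, and Smug1 and Neil1 overlapped. All 5 glycosylase genes were thus below all 5 downstream genes per length under the label WT, and Ung was close to Lig3 and Polb, with overlapping ranges, under the label KO. With the length of the longest transcript in place of merged exons, Xrcc1 came before Apex1 and Neil1 was lowest in both groups, and Ung came before Lig3 in the libraries labelled KO.

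**Figure D3:**
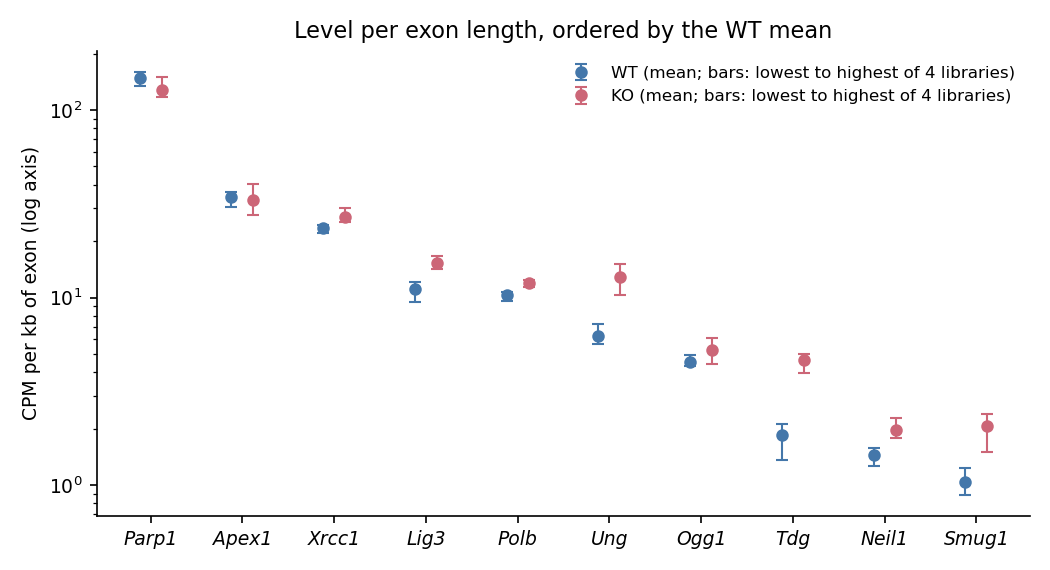
CPM per kilobase of merged exon (log axis) for the 10 genes, ordered by the mean of the libraries labelled WT (blue), with those labelled KO in red. Points are means and bars run from the lowest to the highest of 4 libraries. Parp1 is highest at 148 CPM per kb, and the red points of Tdg, Ung and Smug1 stand clear above the blue ones.

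KO 3 had the lowest level of its group for Smug1, Ung and Apex1 and the highest for Ogg1. For the rest of the 10 genes another library labelled KO was lowest. KO 3 also had the lowest Tet1 of its group, at 75.8 CPM, and whether the 10 genes follow Tet1 within the group was not tested. Without KO 4, the library with Leydig cell transcripts, the log2 difference was 1.32 for Tdg (edgeR adjusted p = 0.000115), 1.10 for Ung (0.000122), 0.95 for Smug1 (0.00279) and 0.50 for Lig3 (0.00587), and 4 of the 10 genes were higher and 0 lower. Apex1, whose difference was close to 0, was at 0.01 without KO 4 and 0.05 without KO 3.

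Most of the calls in the rest of the pathway were upward, and 11 of them were genes of long-patch repair. Of 33 other genes of base excision repair and its nucleotide supply, all tested, 19 rose, 2 fell and 12 missed the threshold, with a median log2 difference of 0.50. Of all tested genes 25.3% were higher and 28.2% lower, and the counts per role below stand beside these shares. Of the 22 whose mean log2 CPM was at least 4, 63.6% were higher, against 46.0% of all genes at that level. Many of these 22 were long-patch genes, which also serve DNA replication. Of the 16 long-patch genes at any level, 68.8% were higher. The share at that level without the long-patch genes was not computed, so 63.6% does not speak for the rest of the pathway. Upper-quartile scaling gave 15 up and 3 down, scaling on ribosomal protein genes 16 and 2, and cyclic loess 16 and 3. Over all 24005 genes the same settings gave 4033 up and 8882 down, 3999 and 7605, and 6128 and 5916, against 6083 and 6770 with TMM.

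**Figure D4:**
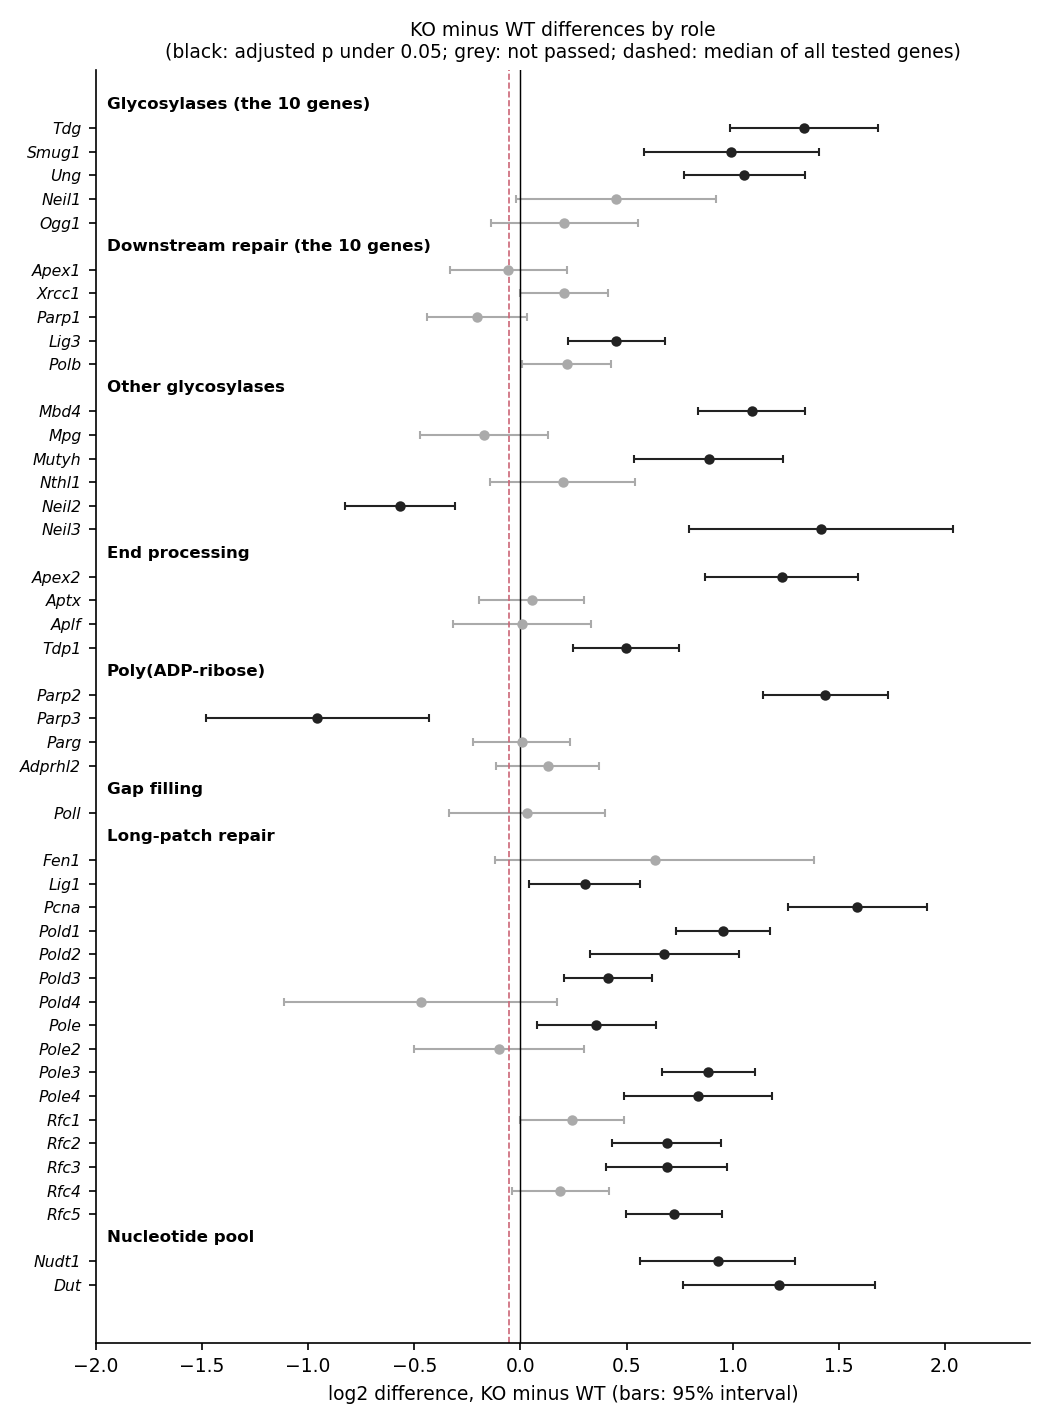
Log2 difference, KO minus WT, with its 95% interval (not adjusted for the number of genes) for the 10 genes and 33 other genes of the pathway, grouped by role. Black marks an edgeR adjusted p under 0.05 and grey marks genes that did not pass. The median of all tested genes, -0.05, is dashed. Neil2 and Parp3 are the 2 black points below 0.

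Of 6 other glycosylase genes, 3 rose, 1 fell and 2 missed the threshold. Mbd4, whose product removes thymine or uracil opposite guanine at CpG sites as TDG does, rose from 19.4 ± 1.86 to 41.3 ± 2.79 CPM (SD, n = 4 each), a log2 difference of 1.09 (edgeR adjusted p = 1.06e-05). It was at most 21.1 CPM where the label was WT and at least 38.2 CPM where it was KO. Mutyh, which removes adenine paired with oxidised guanine, rose by 0.89 and Neil3 by 1.42. Neil2, for oxidised pyrimidines, fell by 0.57 on the log2 scale, from 35.4 ± 1.86 to 23.9 ± 2.87 CPM (SD, n = 4 each; edgeR adjusted p = 0.00158), with no overlap between groups. The family of NEIL glycosylases thus changed in both directions, with Neil3 higher, Neil2 lower and Neil1 not passing. Mpg (-0.17) and Nthl1 (0.20) did not pass, and with upper-quartile scaling Mpg passed as lower (-0.41, adjusted p = 0.0250) and Nthl1 was at -0.04.

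Of 4 genes that trim or open DNA ends, 2 rose and 2 did not pass. Apex2, the second abasic endonuclease gene, rose from 11.1 ± 1.83 to 25.9 ± 4.42 CPM (SD, n = 4 each; log2 difference 1.23, edgeR adjusted p = 5.97e-05), while Apex1 did not pass. The difference between the pair was not tested. Tdp1, which frees blocked DNA ends, rose by 0.50, with its call lost under upper-quartile scaling (0.26, adjusted p = 0.0535) and cyclic loess (0.24, 0.0678). Aptx (0.05) and Aplf (0.01) did not pass, and their sign depended on the scaling.

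Of 4 genes of poly(ADP-ribose) turnover, 1 rose, 1 fell and 2 did not pass. These shares were near those of all tested genes (25.3% higher and 28.2% lower). Parp2, the partner of PARP1 at strand breaks, rose from 17.2 ± 1.99 to 46.6 ± 6.53 CPM (SD, n = 4 each), a log2 difference of 1.44 (edgeR adjusted p = 4.27e-06), with 14.7 to 19.5 CPM in the libraries labelled WT and 38.6 to 54.6 CPM in those labelled KO. Parp3 fell by 0.96 on the log2 scale, from 7.47 ± 1.07 to 3.87 ± 1.37 CPM (SD, n = 4 each; edgeR adjusted p = 0.00509). Parg and Adprhl2, which remove the polymer, had differences of 0.01 and 0.13 that did not pass. With upper-quartile and ribosomal protein scaling both were below 0, and with cyclic loess Parg passed as lower (-0.24, limma adjusted p = 0.0242). The gap-filling polymerase gene Poll had a difference of 0.03, with a sign that also turned under those scalings, and did not pass.

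Of 16 genes of long-patch repair, which copies a longer stretch with the replication machinery, 11 rose, 0 fell and 5 missed the threshold. These genes also serve DNA replication, and the markers of cycling cells given above moved with the same groups. Pcna, the sliding clamp, rose from 20.1 ± 4.08 to 60.6 ± 7.91 CPM (SD, n = 4 each), a log2 difference of 1.59 (edgeR adjusted p = 4.62e-06). Pold1, the catalytic subunit of polymerase delta, rose by 0.95 and Pole3, a subunit of polymerase epsilon, by 0.89. The 5 that did not pass were Fen1 (0.63), Pold4 (-0.47), Pole2 (-0.10), Rfc1 (0.24) and Rfc4 (0.19). Fen1 and Pold4 rested on few counts, 112 (WT) and 150 (KO) for Fen1 and 149 and 91 for Pold4. With cyclic loess Fen1 passed (0.98, limma adjusted p = 0.0416), as it did without KO 3 (0.88, edgeR adjusted p = 0.0300), and the signs of Pold4, Pole2, Rfc1 and Rfc4 turned. Pold3, Pole and Lig1 lost their calls under each of the 3 other scalings (upper quartile, ribosomal protein genes, cyclic loess), and Lig1, the ligase of this branch, had an adjusted p of 0.0487 with edgeR and TMM. Leaving out 1 library ended the call of Lig1 for each library but KO 3 and WT 3 (highest adjusted p = 0.105, without WT 2), as did the replicate number as a block (0.32, 0.0666), testing protein-coding genes only (0.26, 0.0737) and a CPM filter (0.26, 0.0734). It also ended that of Pole without KO 1, KO 3, WT 1 or WT 2 (highest 0.0997, without WT 1). Rfc1 passed without KO 3 (0.32, adjusted p = 0.0363) and without WT 3 (0.34, 0.0336). Both genes of the nucleotide pool rose, Dut, which keeps uracil out of DNA, by 1.22 and Nudt1, which removes oxidised guanine nucleotides, by 0.93.

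Genes that act before the glycosylases in proposed demethylation routes were called in both directions, as were genes at large. Of 9 such genes, all tested, 4 rose, 3 fell and 2 missed the threshold. Of all tested genes, 25.3% were higher and 28.2% lower. The 4 that rose include Tet1, the targeted gene. Tet1 was higher by 1.97 on the log2 scale (edgeR adjusted p = 3.03e-06), and the dioxygenase gene Tet3 fell by 1.10, from 239 ± 24.6 to 111 ± 20.02 CPM (SD, n = 4 each; adjusted p = 2.02e-05). Tet2 (0.24) did not pass, though it did without KO 1 (0.34, adjusted p = 0.0293), and its sign turned with cyclic loess (-0.03). The 3 genes of the GADD45 family, stress-response proteins proposed to help repair-based demethylation, were higher: Gadd45b by 2.20, from 2.21 ± 0.477 to 10.1 ± 2.53 CPM (SD, n = 4 each), Gadd45g by 1.14 and Gadd45a by 0.54. Gadd45a lost its call with upper-quartile (0.31, adjusted p = 0.225) and ribosomal protein scaling (0.37, 0.241), and without KO 1, KO 3, WT 1, WT 3 or WT 4 (highest 0.0754, without WT 4), with the replicate number as a block (0.55, 0.0656) and with no filter on low counts (0.59, 0.0540). The deaminase genes Apobec2 (-0.72) and Apobec3 (-0.79) were lower, both losing their call with cyclic loess (limma adjusted p = 0.153 and 0.0580), and Apobec2 also without KO 1, KO 2, KO 4, WT 2 or WT 3 (highest edgeR adjusted p = 0.0686, without KO 4) and with no filter on low counts (-0.67, 0.0563). Apobec1 (-0.60) did not pass.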

How the data were processed

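Deposited values are raw counts per gene with no normalization, 1 column per library, and the mouse build is mm10. Per the submitters' processing notes the tools included STAR, Trim Galore and featureCounts 1.5.0, beside DESeq2 and edgeR, without their roles. Per the labels, libraries of ribosome-depleted total RNA were made from 5 ng with a kit that carries molecular identifiers. Not given in the sources used here are the strand setting, the annotation release and any collapse of counts by identifier. Gene names, coordinates and exon lengths come from GENCODE M21 on the same assembly, which matched 55141 of 55401 identifiers without their version.

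Genes were kept by filterByExpr, scaled by TMM and fitted with edgeR 4.0.16 (quasi-likelihood, genotype as the only term, R 4.3.3), with Benjamini-Hochberg adjustment over 24005 genes. Intervals are 95% and unadjusted. The pipeline was run on simulated data in which 200 genes were changed. Far more genes were called in the real data, so that run does not check the scaling. Alternatives were DESeq2 1.42.0, limma 3.58.1 with cyclic loess, other scalings and filters, robust dispersion, protein-coding genes only, the replicate number as a block, and leaving out each library. The 10 genes, the lists and the rules were chosen with earlier results of these data known. All 10 genes are named. From other lists up to 3 passing genes with the lowest p, those passing in the less common direction, and the most abundant marker are named. Further genes were named after their values were seen. Some genes of the other lists are not reported here and are not in their counts. Counting error alone limits the precision of low genes, and a count of 0 allows up to 3 counts, between 0.146 and 0.221 CPM.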

Additional observations from a re-analysis of the deposited data

How the results depend on the processing

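Of 180 comparisons of a single gene of the 10 with an alternative, 163 kept direction and side of the threshold, 7 gained a call, 3 lost one and 7 changed sign. Tdg, Ung, Smug1 and Tet1 passed as higher in all 18 alternatives, with log2 differences from 1.10 to 1.44, 0.79 to 1.17, 0.75 to 1.15 and 1.65 to 2.17. Signs changed for Ogg1 (-0.028), Xrcc1 (-0.035) and Polb (-0.019) with upper-quartile scaling, for Xrcc1 (-0.052) and Polb (-0.038) with cyclic loess, and for Apex1, which ran from -0.127 to 0.046 when 1 library at a time was left out, without KO 3 and without KO 4. Cyclic loess called Neil1 (0.73, limma adjusted p = 0.0118). The number of the 10 genes that were lower went from 0 to 2 on the upper quartile, 1 on ribosomal protein genes and 2 with cyclic loess. Over all 24005 genes, 4033 were higher and 8882 lower on the upper quartile, 3999 and 7605 on ribosomal protein genes and 6128 and 5916 with cyclic loess, against 6083 and 6770 with TMM. The cause of these shifts was not tested. Leaving out 1 library at a time gave 4 higher and 0 lower among the 10 genes each time, and 17 to 20 higher and 2 lower among the 33 others. The replicate number as a block gave 4 higher and 0 lower among the 10 genes, and 18 higher and 2 lower among the 33. The block ended the calls of Lig1 and Gadd45a. The labels do not say that same-numbered libraries are paired, although KO 1 and WT 1 also share a number within their library names, whose meaning is not stated. The correlation of their deviations from the group means was 0.21, -0.24, -0.14 and -0.01 for numbers 1 to 4. Pairs with different numbers ran from -0.25 (KO 1 with WT 4) to 0.28 (KO 2 with WT 4). Neil1 had the fewest counts of the 10 genes, 195 and 228, and the widest interval.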
